A study of Mus musculus with 15 samples.

Results

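The genes described here are 8 secreted regulators of Wnt signalling, namely the Frizzled-related proteins Sfrp1, Sfrp2 and Frzb, the Wnt-binding protein Wif1, the Dickkopf proteins Dkk2 and Dkk3, and the R-spondins Rspo1 and Rspo3. They were taken as a fixed list of gene symbols, all 8 had a value, and they stand among 13513 named genes with a value. RNA of mouse heart cells was measured on Affymetrix arrays in 3 groups with 5 arrays each. EpiSC were epicardial stromal cells and aCF were activated cardiac fibroblasts, both taken from hearts 5 days after myocardial infarction, and CF were cardiac fibroblasts of unstressed hearts. The mice of every group were wild-type C57BL/6 aged 8 to 12 weeks, and no transgene or drug is named for any group. The labels name no sham operation, so surgery and infarction cannot be told apart. EpiSC were shaken off the heart surface during collagenase digestion, whereas aCF and CF came from digested ventricles without atria by straining and slow centrifugation, so cell type and isolation cannot be told apart either. The labels name no sort of the cells. EpiSC and aCF could be taken from the same heart, but which arrays share one is not stated; the 5 arrays of a group are labelled as biological replicates. The label "fibroblast" or "stromal cell" therefore stands for a fraction of the heart.

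Every gene name below depends on an inferred correction of the deposited table. The value of the identifier in row i was read 6900 rows further down, with 3 more rows for chromosomes 10 and 11. No source states this displacement. With each identifier kept on its own row, 0 of the 8 genes passed the threshold in any comparison. On each of the chromosomes that carry the 8 genes (2, 3, 4, 7, 8 and 10), cell marker genes followed the other members of their lists best at exactly this placement among 41 placements tried. The mean correlation was between 0.318 and 0.675 at this placement, against at most 0.365 at any other. That check rested on 2 to 7 marker genes per chromosome and used deviations from group means. Its 41 placements were shifts from this one and leave most displacements possible in 22206 rows untried. The closest contest was on chromosome 3, which carries Sfrp2 and Dkk2, with 0.318 against 0.287. Wif1 and Rspo3 lie on chromosome 10 and depend on the extra 3 rows as well.

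Wnt proteins are secreted signals that bind Frizzled receptors and the co-receptors Lrp5 and Lrp6, which leads to stabilization of beta-catenin and transcription of target genes. Sfrp1, Sfrp2 and Frzb carry a Frizzled-like cysteine-rich domain, Wif1 carries its own Wnt-binding domain, and these proteins bind Wnts outside the cell. Dkk2 binds the co-receptors, while Dkk3 is a divergent family member whose part in Wnt signalling is less clear. R-spondins act the other way: they bind Lgr4, Lgr5 or Lgr6 and remove the ubiquitin ligases Znrf3 and Rnf43, which leaves more Frizzled at the cell surface. Wnt signalling is low in the healthy adult heart, and its components are known to change in the healing infarct.

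The sequence at the gene start is shown for 3 of the genes. Sfrp2 and Frzb were both highest in aCF, Rspo1 was highest in EpiSC, and their windows are printed so that the genes with opposite group patterns can be read side by side. Each runs from 250 bases before to 50 bases after the annotated gene start in RefSeq, build GRCm38.p6, 5′ to 3′ on the gene's strand. Capitals mark CG dinucleotides. The Sfrp2 window is chr3:83766071-83766370 on the plus strand, the Frzb window chr2:80447347-80447646 on the minus strand and the Rspo1 window chr4:124986180-124986479 on the plus strand.
Sfrp2: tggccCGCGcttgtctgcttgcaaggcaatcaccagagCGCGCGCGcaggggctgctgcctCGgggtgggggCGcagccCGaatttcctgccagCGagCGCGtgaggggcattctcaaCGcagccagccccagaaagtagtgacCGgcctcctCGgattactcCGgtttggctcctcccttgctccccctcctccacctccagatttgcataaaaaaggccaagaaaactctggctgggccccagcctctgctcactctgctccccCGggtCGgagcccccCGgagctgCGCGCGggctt
Frzb: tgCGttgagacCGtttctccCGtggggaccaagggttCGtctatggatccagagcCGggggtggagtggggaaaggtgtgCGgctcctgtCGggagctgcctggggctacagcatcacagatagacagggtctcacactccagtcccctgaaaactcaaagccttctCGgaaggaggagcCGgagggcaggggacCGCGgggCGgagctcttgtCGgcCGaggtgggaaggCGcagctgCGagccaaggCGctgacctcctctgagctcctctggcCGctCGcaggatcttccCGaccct
Rspo1: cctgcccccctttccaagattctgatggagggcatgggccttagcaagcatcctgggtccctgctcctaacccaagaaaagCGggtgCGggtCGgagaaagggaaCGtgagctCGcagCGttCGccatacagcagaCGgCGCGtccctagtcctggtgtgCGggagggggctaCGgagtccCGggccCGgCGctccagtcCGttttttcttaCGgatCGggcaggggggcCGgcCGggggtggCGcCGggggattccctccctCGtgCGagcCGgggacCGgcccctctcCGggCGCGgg

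The 3 windows were rich in CG dinucleotides, with 22 in Sfrp2, 20 in Frzb and 29 in Rspo1, against a median of 7 over 32851 mouse windows of the same length, and their GC content was 66.0%, 64.7% and 69.0% against a median of 52.7%. Of all windows, 73.5% held fewer than 20 CG dinucleotides, so counts like these are not rare. In CG and GC content the 3 windows did not separate by group pattern. A search on both strands for 7 short motifs found a single match in the 3 windows, a GC box (GGGCGG) in Frzb. GC boxes stood in 35.7% of all windows. The motifs with no match in these windows were the TATA box (TATAAA, in 13.6% of all windows), the CCAAT box (CCAAT, 37.4%), a TCF/LEF core (CTTTGAT, 3.73%), AP-1 (TGANTCA, 7.81%), TEAD (GGAATG, 14.7%) and EGR/WT1 (GCGTGGG, 5.04%). Windows were available for 5 of the 8 genes, and those of Dkk2 and Wif1 held 11 and 25 CG dinucleotides. The Dkk2 window held 1 TATA box, 1 CCAAT box, 2 GC boxes and 1 EGR/WT1 match. That of Wif1 held 1 TATA box and 2 GC boxes.

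Values are log2 expression, centred so that the median of the 15 arrays is 0 for every probe set. A value of 0 is that median and not an absence of RNA, absolute levels are lost, and the genes cannot be ranked against each other. Differences were tested with limma's moderated test, two-sided, with Bonferroni adjustment over all 22206 rows and a threshold of 0.05, and Benjamini-Hochberg adjustment is given as a second, less strict call. In bulk samples like these, fewer cells of a type and less RNA per cell cannot be told apart.

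**Figure D1:**
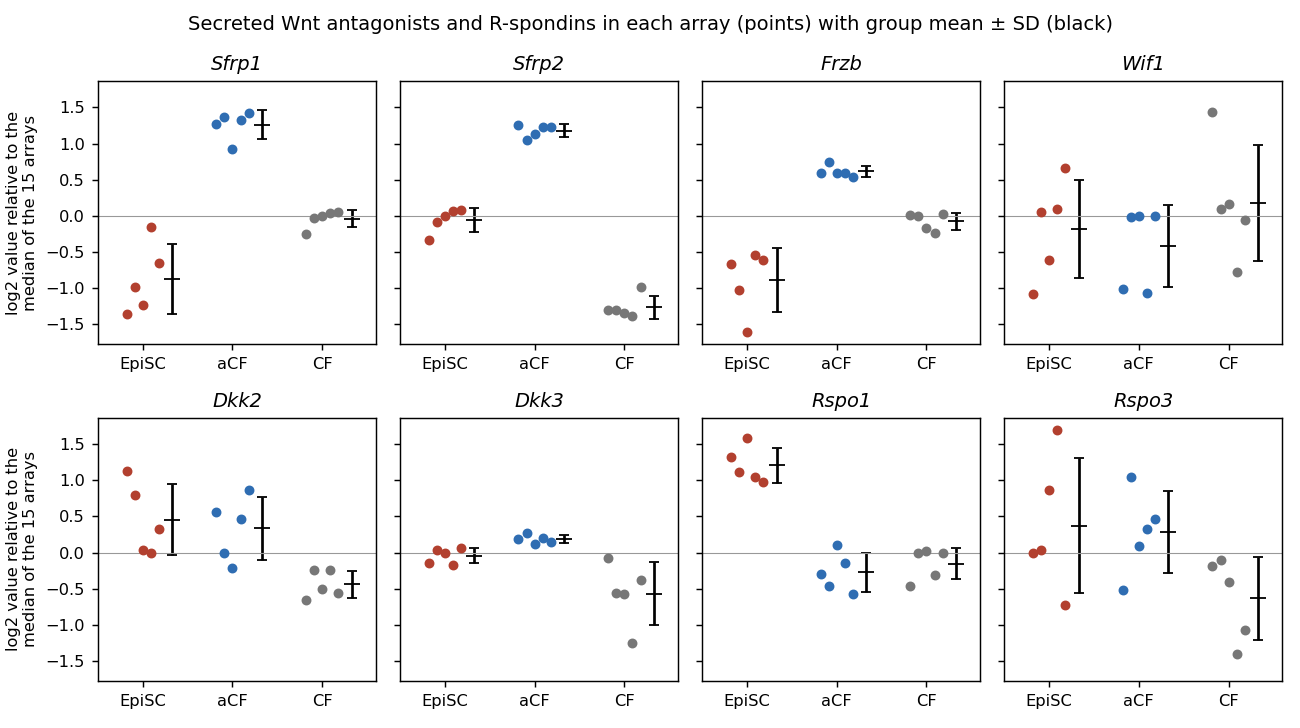
The log2 value of each of the 8 genes (vertical axis, relative to the median of the 15 arrays) in every EpiSC, aCF and CF array. Points are arrays, and black bars give the group mean ± SD (n = 5). All 5 aCF arrays lie above all other arrays for Sfrp1, Sfrp2 and Frzb, and all 5 EpiSC arrays lie above all other arrays for Rspo1.

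Among the Wnt-binding proteins, the 3 genes of the Frizzled-related family were highest in aCF. Sfrp2 was higher in aCF than in CF by 2.44 ± 0.08 on the log2 scale (SE, n = 5 per group), a 5.44-fold difference. Sfrp1 was higher by 1.30 ± 0.10 and Frzb by 0.69 ± 0.07. EpiSC held less of each than aCF did, but stood on different sides of CF. EpiSC exceeded CF for Sfrp2 by 1.21 ± 0.10, whereas they lay below CF for Sfrp1 (-0.84 ± 0.20) and Frzb (-0.82 ± 0.19), differences that passed only the Benjamini-Hochberg adjustment. The 3 genes thus shared their highest group and not their lowest.

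Sfrp2, which besides binding Wnts is known to enhance procollagen processing, had the clearest separation of the 8 genes. Its log2 values were -0.33, -0.09, 0.00, 0.07 and 0.08 in EpiSC, 1.26, 1.05, 1.13, 1.23 and 1.23 in aCF, and -1.30, -1.30, -1.35, -1.38 and -0.99 in CF. The 3 groups formed 3 levels with no overlap, aCF above EpiSC above CF. EpiSC lay below aCF by 1.23 (log2 difference -1.23 ± 0.09, Bonferroni-adjusted p in limma = 0.00114). The difference between aCF and CF (adjusted p = 3.86e-07) ranked 42nd from the top of the 22206 rows. EpiSC against CF also passed (adjusted p = 0.00476). Each of these calls held in all 10 omissions of a single array, with adjusted p up to 0.00956, 6.95e-06 and 0.0358 in limma. Without aCF4 and aCF5, 2 arrays that lay apart from the other aCF arrays, the EpiSC against aCF difference stayed at -1.20 and its adjusted p became 0.0867. EpiSC against CF did not pass in a trended and robust fit (adjusted p = 0.112 in limma). The spread of Sfrp2 within aCF was small, with an SD of 0.09 against a median of 0.16 over all rows.

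Sfrp1 had log2 values of -1.36, -0.98, -1.23, -0.16 and -0.65 in EpiSC, 1.27, 1.37, 0.92, 1.33 and 1.43 in aCF, and -0.25, -0.03, 0.00, 0.04 and 0.05 in CF. The aCF arrays stood clear of both other groups. EpiSC4 reached the CF range, so EpiSC and CF overlapped. EpiSC lay below aCF by 2.14 ± 0.21 (log2 difference -2.14, 4.41-fold, adjusted p = 0.0265 in limma), the 14th lowest difference of the 22206 rows. This call held in 1 of 10 omissions, that of EpiSC4 (adjusted p = 0.00216), and was lost in the other 9 with adjusted p up to 0.164, while the log2 difference kept between -2.32 and -2.02. The rise in aCF over CF (2.47-fold, adjusted p = 0.00206) held in all 10 omissions (up to 0.0154). It did not pass with all 3 groups in 1 fit (0.103), in a trended and robust fit (0.194) or without aCF4 and aCF5 (0.0768). Without these 2 arrays EpiSC against aCF had a log2 difference of -2.06 and an adjusted p of 1. EpiSC against CF did not pass Bonferroni adjustment (adjusted p = 1, Benjamini-Hochberg-adjusted p = 0.00979 in limma).

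Frzb, also called Sfrp3, had log2 values of -0.67, -1.03, -1.61, -0.54 and -0.61 in EpiSC, 0.60, 0.74, 0.60, 0.60 and 0.54 in aCF, and 0.01, 0.00, -0.17, -0.24 and 0.02 in CF. Its 3 groups did not overlap, in the order aCF, CF, EpiSC, and the EpiSC arrays were spread over more than 1 log2 unit. The EpiSC against aCF difference of -1.51 ± 0.18 (2.84-fold) missed the Bonferroni threshold (adjusted p = 0.178) and passed Benjamini-Hochberg adjustment (0.000732 in limma). It passed Bonferroni adjustment without EpiSC3, the lowest array (log2 difference -1.33, adjusted p = 0.00691), and with all 3 groups in 1 fit (0.00345). The rise in aCF over CF (1.62-fold, adjusted p = 0.0249) was lost in each of the 10 omissions, with adjusted p between 0.0645 and 0.138 in limma. It did not pass either with all 3 groups in 1 fit or in a trended and robust fit (adjusted p = 1 in both), after quantile normalization (0.0512) or without aCF4 and aCF5 (0.401). Frzb lay lower in EpiSC than in CF by 0.82 without overlap of the groups (Benjamini-Hochberg-adjusted p = 0.00759, Bonferroni-adjusted p = 1 in limma).

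Wif1, the fourth Wnt-binding protein, showed no group pattern. Its log2 values were -1.08, 0.05, -0.61, 0.09 and 0.66 in EpiSC, -1.01, -0.02, 0.00, -1.07 and 0.00 in aCF, and 1.44, 0.10, 0.17, -0.77 and -0.06 in CF. Arrays of every group overlapped. Within CF its SD of 0.80 exceeded that of 99.8% of all rows. The log2 differences were 0.24 for EpiSC against aCF (95% confidence interval -0.54 to 1.02), -0.60 for aCF against CF (-1.45 to 0.26) and -0.35 for EpiSC against CF (-1.27 to 0.57). Single arrays moved these values: without CF1 they were -0.28 for aCF against CF and -0.04 for EpiSC against CF, and without CF4 -0.83 and -0.59. Omitting 1 array gave between 0.03 and 0.47 for EpiSC against aCF, and without EpiSC1 the EpiSC against CF value was -0.13. With intervals this wide, differences as large as that of Frzb between aCF and CF were not detectable. Without the extra 3 rows on chromosome 10 the aCF against CF value turned to 0.10 and the EpiSC against CF value to 0.23.

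The Dickkopf genes were higher in both infarct groups than in CF, with Benjamini-Hochberg but not Bonferroni adjustment. Dkk2 rose by 0.78 ± 0.19 in aCF over CF and by 0.90 ± 0.21 in EpiSC over CF on the log2 scale, and Dkk3 by 0.75 ± 0.18 and 0.53 ± 0.18 (Benjamini-Hochberg-adjusted p between 0.00925 and 0.0477 in limma). The 2 comparisons share the CF arrays. Between EpiSC and aCF, Dkk2 differed by 0.12 (95% confidence interval -0.47 to 0.71) and Dkk3 by -0.23 (-0.37 to -0.08), and neither passed an adjustment.

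Dkk2 had log2 values of 1.13, 0.79, 0.04, -0.01 and 0.33 in EpiSC, 0.56, 0.00, -0.21, 0.46 and 0.87 in aCF, and -0.65, -0.24, -0.51, -0.24 and -0.56 in CF. Every CF array was below every array of the other groups, with a gap of only 0.03 to aCF3. The infarct groups overlapped almost fully and were spread widely, with an SD of 0.49 in EpiSC and 0.44 in aCF, more than in 90.1% and 91.4% of all rows. Dkk3 had log2 values of -0.14, 0.04, 0.00, -0.17 and 0.06 in EpiSC, 0.19, 0.27, 0.12, 0.20 and 0.15 in aCF, and -0.07, -0.56, -0.58, -1.25 and -0.38 in CF. Here the spread sat in CF, where the SD was 0.43 against 0.06 in aCF, and CF1 reached the EpiSC range. All 5 aCF arrays of Dkk3 lay above all 5 EpiSC arrays by a small step.

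Of the R-spondins, Rspo1 was high in EpiSC, while Rspo3 had no call. Rspo1, which is known to act with Wnt4 in ovary development, had log2 values of 1.32, 1.12, 1.58, 1.05 and 0.98 in EpiSC, -0.29, -0.46, 0.10, -0.14 and -0.58 in aCF, and -0.46, 0.00, 0.02, -0.31 and -0.01 in CF. The EpiSC arrays stood clear of the rest, and aCF and CF overlapped. The log2 difference was 1.48 ± 0.15 between EpiSC and aCF (2.80-fold, adjusted p = 0.0321 in limma) and 1.36 ± 0.14 between EpiSC and CF (2.57-fold, adjusted p = 0.0276). Between aCF and CF it was -0.12, with a 95% confidence interval of -0.44 to 0.19. The first call held in 1 of 10 omissions, that of aCF3 (adjusted p = 0.0235), and was otherwise lost with adjusted p up to 0.187. It was lost after quantile normalization (0.0668), in a trended and robust fit (0.0663) and without aCF4 and aCF5 (0.650). The second held without EpiSC3 (0.0394) and was lost in the other 9 omissions (up to 0.162) and in the trended and robust fit (0.187). The sizes moved little in these omissions, between 1.39 and 1.58 for EpiSC against aCF and between 1.27 and 1.42 for EpiSC against CF.

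Rspo3, known in the mouse for a role in coronary vessel growth, had log2 values of 0.00, 0.03, 0.87, 1.70 and -0.73 in EpiSC, -0.52, 1.05, 0.09, 0.33 and 0.46 in aCF, and -0.19, -0.10, -0.41, -1.40 and -1.07 in CF. It varied more between arrays of a group than most rows did, with an SD of 0.93 in EpiSC, and all groups overlapped. The difference between aCF and CF was 0.92 ± 0.32 (Benjamini-Hochberg-adjusted p = 0.0734 in limma) and that between EpiSC and CF 1.01 ± 0.43 (0.102), so neither passed. Without the extra 3 rows on chromosome 10 these values would be 0.01 and 0.07.

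**Figure D2:**
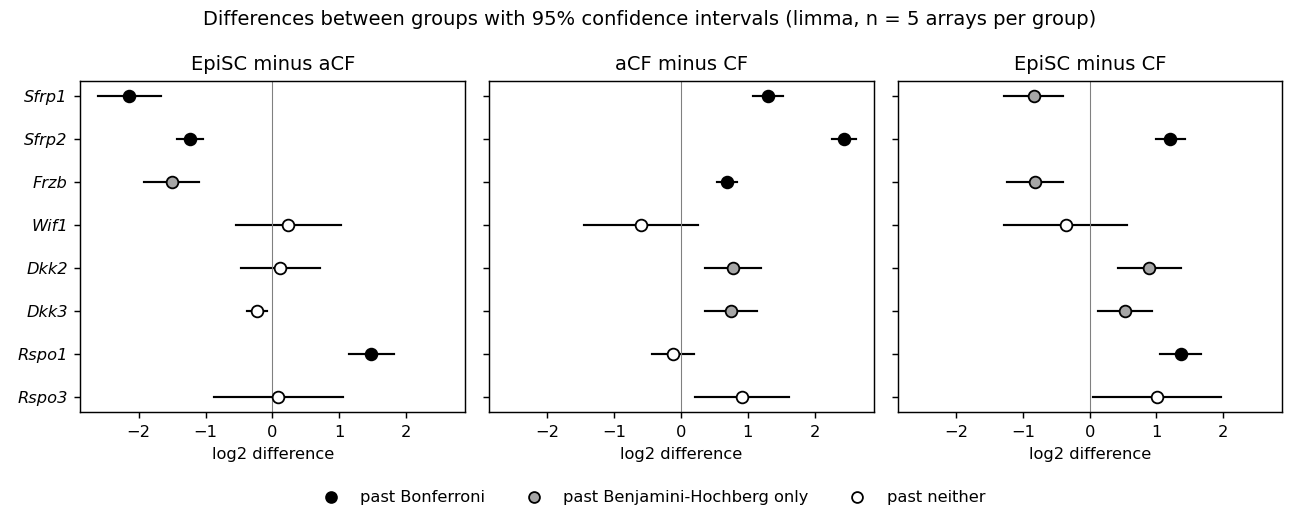
The log2 difference of each gene in the 3 comparisons (horizontal axis), with 95% confidence intervals from limma (n = 5 arrays per group). Filled points passed Bonferroni adjustment, grey points passed only Benjamini-Hochberg adjustment and open points passed neither. For EpiSC minus aCF, Sfrp1 (-2.14), Frzb (-1.51) and Sfrp2 (-1.23) lie left of 0 and Rspo1 (1.48) lies right of it.

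Counted over the list, 1 of the 8 genes was higher and 2 were lower in EpiSC than in aCF with Bonferroni adjustment, where 0.401% of all rows were higher and 0.266% lower. With Benjamini-Hochberg adjustment the counts were 1 and 3 of 8, against 4.61% and 5.01% of all rows. The arrays did not overlap for 1 gene upward and 4 downward, against 5.18% and 4.73% of all rows. The median size of the log2 difference, without its sign, was 0.74 for the 8 genes and 0.13 for all rows.

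In aCF against CF, 3 of 8 rose and 0 fell with Bonferroni adjustment, where 1.21% of all rows rose and 0.320% fell. With Benjamini-Hochberg adjustment 5 rose and 0 fell, against 8.74% and 9.38%, and the same numbers did not overlap, against 7.88% and 6.84%. Of the 3 genes with no such call, Wif1 lay lower, Rspo1 lower and Rspo3 higher in aCF. In EpiSC against CF, 2 of 8 rose and 0 fell with Bonferroni adjustment, against 1.97% and 0.941% of all rows. With Benjamini-Hochberg adjustment 4 rose and 2 fell, against 14.5% and 17.7%, and 3 upward and 1 downward did not overlap, against 11.6% and 11.8%. The 3 comparisons share arrays with each other. The genes were listed with earlier results of these data known, so the counts describe them and say nothing of Wnt regulators in general.

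Other listed Wnt regulators, not all of them members of these families, changed little where they had a value. Of 12 listed, 4 had one. Dkk4, Dkkl1 and Rspo4 stayed within 0.16 on the log2 scale in all 3 comparisons and passed no adjustment. Igfbp4, a binding protein of insulin-like growth factors that can also inhibit Wnt signalling, lay lower in EpiSC than in CF by 0.31 ± 0.05 (log2 difference -0.31, Benjamini-Hochberg-adjusted p = 0.00173 in limma). Sfrp4, Sfrp5, Dkk1, Rspo2, Sost, Sostdc1, Notum and Apcdd1 were not analysed here, because their identifiers fall among those left without a value by the displacement.

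**Figure D3:**
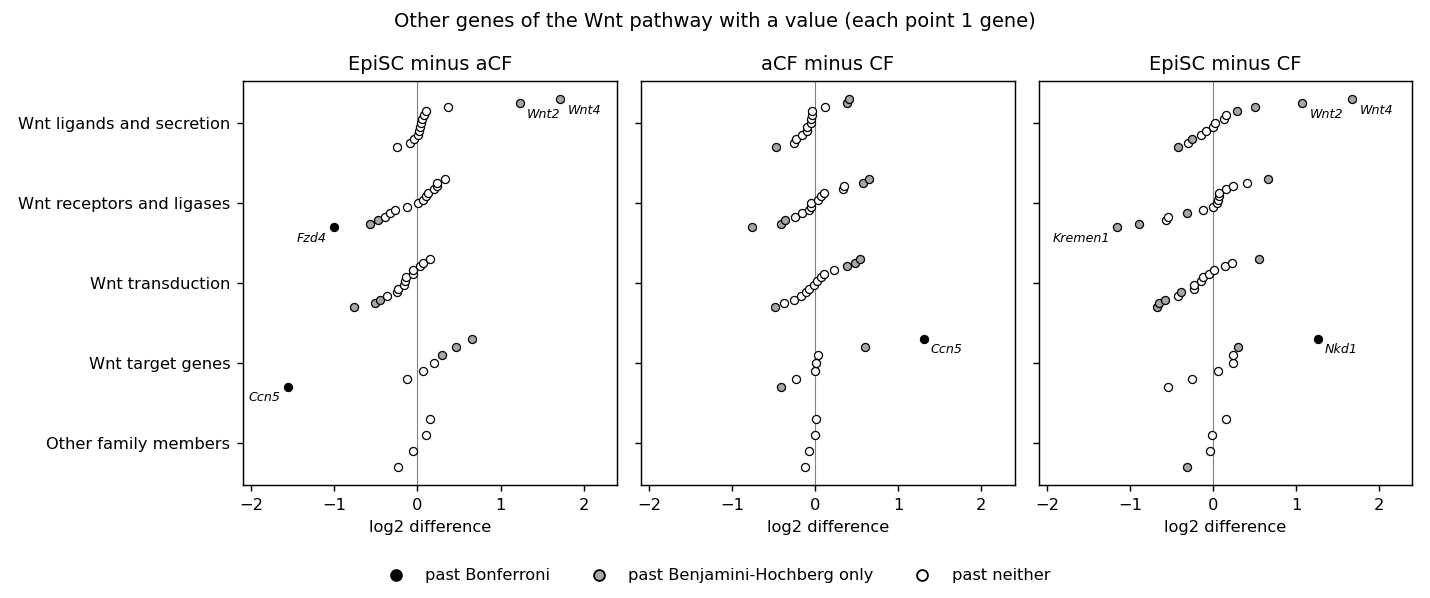
Log2 differences (horizontal axis) of the other Wnt pathway genes with a value, grouped by role, each point being 1 gene and n = 5 arrays per group. Fzd4 (-1.002) and Ccn5 (-1.56) passed Bonferroni adjustment in EpiSC minus aCF, Ccn5 (1.31) in aCF minus CF and Nkd1 (1.26) in EpiSC minus CF.

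Among the Wnt ligands and their secretion factors, 13 of 21 listed genes had a value and 0 passed Bonferroni adjustment in limma in any comparison. With Benjamini-Hochberg adjustment 2 were higher and 0 lower in EpiSC than in aCF, 2 higher and 1 lower in aCF than in CF, and 4 higher and 2 lower in EpiSC than in CF. Over all rows these shares were 4.61% higher and 5.01% lower, 8.74% and 9.38%, and 14.5% and 17.7%, and the 2 of 13 lower in EpiSC than in CF are near that background. Wnt4 had its highest values in EpiSC, as Rspo1 did. It ranged from 0.91 to 1.99 in EpiSC (median 1.88), from -0.36 to 0.00 in aCF (median -0.06) and from -0.27 to 0.10 in CF (median -0.12). The EpiSC arrays stood clear of the other 10, with a log2 difference of 1.72 ± 0.21 from aCF (Benjamini-Hochberg-adjusted p = 0.000823, Bonferroni-adjusted p = 0.215 in limma). Wnt2 was also higher in EpiSC than in aCF, by 1.23 ± 0.25 (Benjamini-Hochberg-adjusted p = 0.0126). Wls, which carries Wnt proteins to the cell surface, was higher in EpiSC than in CF by 0.51 ± 0.08 (0.00126) and higher in aCF than in CF by 0.41 ± 0.08 (0.00631).

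Of the receptors, co-receptors and ligases, 15 of 23 had a value, and 1 passed Bonferroni adjustment, namely the receptor Fzd4. It was lower in EpiSC than in aCF (log2 difference -1.002 ± 0.10, adjusted p = 0.0208 in limma), a call that held without EpiSC1 or EpiSC3 and was lost in the other 8 omissions (adjusted p up to 0.132) and in a trended and robust fit (0.611). With Benjamini-Hochberg adjustment 0 of the 15 were higher and 3 lower in EpiSC than in aCF, 2 and 3 in aCF than in CF, and 1 and 3 in EpiSC than in CF. Of all rows, 4.61% were higher and 5.01% lower in the first, 8.74% and 9.38% in the second, and 14.5% and 17.7% in the third, so the EpiSC against CF counts are near or below the background. Between EpiSC and aCF, where Rspo1 differed by 1.48, its partners had no call: Lgr4 differed by -0.32 ± 0.22, Lgr5 by 0.20 ± 0.15, Lgr6 by 0.06 ± 0.20 and the ligase Znrf3 by -0.12 ± 0.23, and none of these 4 values passed Benjamini-Hochberg adjustment in limma. Znrf3 lay lower in aCF than in CF by 0.41 ± 0.11 (log2 difference -0.41, Benjamini-Hochberg-adjusted p = 0.024). Kremen1, a receptor that works with Dickkopf proteins, lay lower than in CF in both infarct groups, by 1.16 ± 0.14 in EpiSC (log2 difference -1.16, 0.000153) and by 0.76 ± 0.13 in aCF (log2 difference -0.76, 0.00213). The co-receptor Lrp6 differed by -0.31 ± 0.07 between EpiSC and CF (0.00788). Lrp5 and Rnf43 were not analysed here.

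Of the intracellular components 14 of 27 had a value and 0 passed Bonferroni adjustment in limma, while Benjamini-Hochberg adjustment called 0 higher and 3 lower in EpiSC than in aCF, 3 and 1 in aCF than in CF, and 1 and 4 in EpiSC than in CF. Of the common target genes 7 of 18 had a value, of which Benjamini-Hochberg adjustment called 3 higher and 1 lower in EpiSC than in aCF, 2 and 1 in aCF than in CF, and 2 and 0 in EpiSC than in CF. For both lists the background was 4.61% of all rows higher and 5.01% lower, 8.74% and 9.38%, and 14.5% and 17.7% in the same comparisons. With 14 and 7 genes, 1 gene more or less moves these shares much, and the counts were not tested against the background. Lgr5 and Znrf3 stand both among the target genes and among the receptors and ligases above. Znrf3, lower in aCF than in CF, is therefore counted in both lists. Axin2, a feedback inhibitor often read as a marker of beta-catenin signalling, lay higher in EpiSC than in aCF by 0.47 ± 0.11 (Benjamini-Hochberg-adjusted p = 0.0194 in limma) with overlapping arrays. It differed by -0.23 ± 0.12 between aCF and CF (0.215) and by 0.24 ± 0.14 between EpiSC and CF (0.207 in limma), and neither passed. Nkd1, another feedback inhibitor, rose in EpiSC over CF by 1.26 ± 0.13 (Bonferroni-adjusted p = 0.045), a call that held without EpiSC3 or EpiSC5 and was lost in the other 8 omissions (up to 0.267). Nkd1 was also higher in aCF than in CF by 0.60 ± 0.10 (Benjamini-Hochberg-adjusted p = 0.0019 in limma). It was higher in EpiSC than in aCF by 0.66 ± 0.13 (0.0107), and the groups did not overlap in either comparison. Lef1 differed by at most 0.07 in the 3 comparisons.

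Ccn5, a matricellular protein listed among the targets, followed the Frizzled-related genes. It ranged from -0.72 to 0.03 in EpiSC, from 1.08 to 1.5 in aCF and from -0.21 to 0.41 in CF, and the aCF arrays stood clear. It lay lower in EpiSC than in aCF by 1.56 ± 0.14 (log2 difference -1.56, Bonferroni-adjusted p = 0.0124 in limma), a call lost without EpiSC1, EpiSC2, aCF2, aCF3, aCF4 or aCF5 (up to 0.0815). The rise in aCF over CF by 1.31 ± 0.13 (0.0182) held only without aCF1 or CF1 among the 10 omissions (up to 0.115). Over all 22206 rows the median log2 difference was 0.01, -0.02 and -0.01 in the 3 comparisons, values that quantile normalization and centring hold near 0, so a shift shared by most genes could not be seen.

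Genes with the most similar profile over the 15 arrays were looked up for each of the 8 genes by Pearson correlation among the named genes. These are descriptions: the arrays fall into 3 groups, which any gene with a like group pattern shares. For Sfrp1 the most similar were Tnks (r = 0.970), Emilin1 (0.966) and Chpf (0.966), for Frzb Gask1b (0.965), Fxyd6 (0.962) and Nbea (0.959), and for Sfrp2 Ecrg4 (0.981), Ada (0.976) and Mmp23 (0.975). Tnks encodes tankyrase, which marks Axin for breakdown and is itself on the fixed list of Wnt transduction genes. Tnks was lower in EpiSC than in aCF by 0.77 ± 0.09 (log2 difference -0.77) and higher in aCF than in CF by 0.54 ± 0.07 (Benjamini-Hochberg-adjusted p = 0.000622 and 0.00053, Bonferroni-adjusted p = 0.137 and 0.307 in limma). For Rspo1 the most similar were the small heat shock protein gene Hspb1 (0.983), the kinase gene Stk26 (0.970) and Rdh10 (0.966), an enzyme of retinoic acid synthesis.

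For the genes with less group pattern the likeness was lower. It was 0.913 for Dkk2 with Fbxw9, followed by Msn (0.909) and Trim30b (0.906), and 0.902 for Dkk3 with Cd59b, followed by Agbl5 (0.884) and Cryzl2 (0.865). Rspo3 was most like Bag2 (0.891), Olfr1284 (0.860) and Fam151a (0.834), and Wif1 most like Plch2 (0.802), Scly (0.788) and Gal3st2b (0.763). Once group means were removed, the 3 most similar genes were different ones for each of the 8, except Scly, which stayed in the 3 of Wif1. The highest such value was 0.936, for Sfrp1 with Ddx18, followed by Srpx2 (0.905) and Trib3 (0.897). Among the 8 genes themselves the Sfrp1 and Frzb values correlated at 0.925 over the 15 arrays and at 0.456 after the group means were removed.

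**Figure D4:**
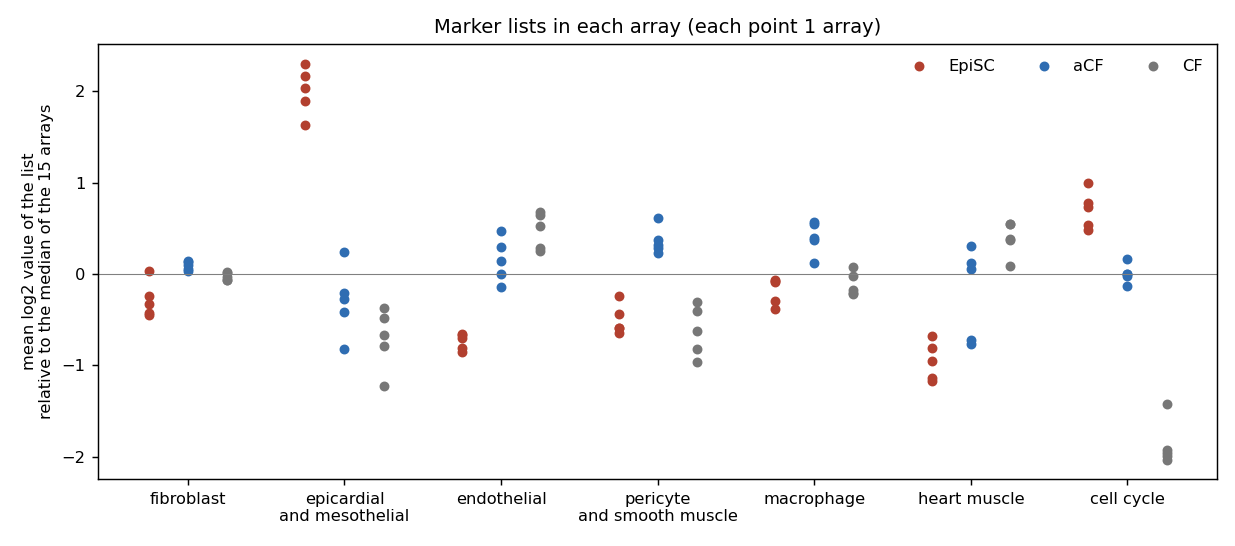
Mean log2 value of 7 marker lists (vertical axis, relative to the median of the 15 arrays) in every EpiSC, aCF and CF array, each point being 1 array. Pericyte and smooth muscle markers lie between 0.23 and 0.61 in aCF, above all EpiSC and CF arrays, and epicardial and mesothelial markers lie between 1.63 and 2.30 in EpiSC.

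The groups differed in markers of other cell types, and these values belong beside the results above. Of the epicardial and mesothelial markers 6 of 12 had a value. They averaged 1.63 to 2.30 in EpiSC, -0.82 to 0.24 in aCF and -1.23 to -0.37 in CF, so their mean was highest in EpiSC, as Rspo1 was. With Benjamini-Hochberg adjustment 5 of the 6 were higher in EpiSC than in aCF and than in CF. Tbx18 was not, with log2 differences of 0.10 and 0.32 and overlapping arrays. Dmkn was also higher in aCF than in CF, by 2.41. Fibroblast markers (9 of 10) averaged -0.45 to 0.03 in EpiSC, 0.04 to 0.14 in aCF and -0.07 to 0.02 in CF. The close aCF and CF means hid opposite changes. Col1a1 (1.18), Col1a2 (1.27) and Col3a1 (1.07) were higher in aCF than in CF on the log2 scale. Gsn (-1.13), Ddr2 (-0.69) and Tcf21 (-0.38) were lower, while Dcn, Lum and Dpt passed no adjustment. Since levels are centred, the presence of a marker cannot be read from them.

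Pericyte and smooth muscle markers (8 of 11) averaged -0.65 to -0.24 in EpiSC, 0.23 to 0.61 in aCF and -0.96 to -0.30 in CF, and macrophage markers (6 of 10) -0.38 to -0.06, 0.12 to 0.57 and -0.22 to 0.08 in the same groups. Both list means were highest in aCF, like Sfrp1, Sfrp2 and Frzb. The pericyte and smooth muscle genes went different ways: Rgs5 (-2.70 in EpiSC, 0.88 in aCF and -0.25 in CF) and Tagln (0.14, 0.72 and -1.64) had their highest group mean in aCF, Des in EpiSC (1.61, -0.08 and -1.08), and Kcnj8 (-0.37, 0.22 and 0.52) and Abcc9 (-0.94, -0.11 and 0.51) in CF. The low CF mean included Cnn1 at -2.53. Endothelial markers (8 of 10) averaged -0.85 to -0.66 in EpiSC, -0.15 to 0.47 in aCF and 0.25 to 0.67 in CF. Esam had its highest group mean in EpiSC (0.52, 0.07 and -0.22 in the same groups) and Ptprb in aCF (-1.82, 1.27 and 0.13). The other endothelial markers with a value had it in CF. Heart muscle markers (7 of 10) averaged -1.17 to -0.68 in EpiSC, -0.77 to 0.30 in aCF and 0.09 to 0.55 in CF, with aCF4 and aCF5 the lowest aCF arrays. Cell cycle genes (8 of 10) averaged 0.49 to 0.99 in EpiSC, -0.13 to 0.17 in aCF and -2.03 to -1.42 in CF. Dkk2 and Rspo3 had their group means in the same order. Their EpiSC and aCF arrays overlapped, however, with log2 differences of 0.12 and 0.09 that passed no adjustment. The part of these marker differences in the results for the 8 genes was not tested.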

How the data were processed

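RNA (1 ng per sample) was amplified and labelled with biotin, per the labels' protocols. The authors worked in GeneSpring GX 12.5 with quantile normalization and ExonRMA16 summarization, then centred every probe set on its median across samples, as the design text states. The genome build is not named there. The deposited values are therefore log2 values, with base 2 inferred from RMA because no header names it, and they run from -4.77 to 5.52. All 22206 rows have a median of 0, so signal over background and the authors' filter on raw signal could not be used; the number of arrays limits the precision.

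Identifiers and values were paired by the displacement given above, which gave 15303 rows a value and left the other rows unnamed; these stayed in the tests. Names came from the platform annotation, with symbols updated through gene identifiers (19572 probe sets with 1 symbol, 0 with several, 2634 with none). Deviations from group means within marker lists correlated more after the displacement for 6 of 7 lists (for heart muscle 0.501 against -0.0597 as deposited) and less for the macrophage list (0.177 against 0.269).

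Each pair of groups was fitted separately with limma 3.58.1 in R 4.3.3 (lmFit, eBayes), as the design text describes pairwise comparisons with Bonferroni correction; the code was tested on simulated data. EpiSC against CF was added. Alternatives were 1 fit of 3 groups, quantile normalization, a trended and robust fit, Benjamini-Hochberg adjustment, paired rows only, a replicate block, omission of arrays and other pairings of identifiers. The labels give no batch. No pair of arrays shared over 2.45% of identical values. The 8 genes and all lists were chosen with earlier results of these data known. Genes named were the 8, the other listed Wnt regulators, fixed R-spondin partners and targets, pathway genes past a threshold and the 3 most similar genes. Wnt4, Wnt2, Wls, Kremen1 and Tnks passed only Benjamini-Hochberg adjustment and were named after their values were seen. Leaving out aCF4 and aCF5 was chosen after seeing the data, from the first principal component (51.3% of variance). On it they lay at 6.35 and 4.48, against -4.51 to -1.64 for the other aCF arrays. EpiSC5 also lay apart there, at 25.3 against 34.3 to 38.5 for the other EpiSC arrays. It was left out only in the omissions of 1 array.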

Additional observations from a re-analysis of the deposited data

Results flagged for a closer look

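In 24 groups of 5 arrays (8 genes in 3 groups), 2 arrays stood apart from the rest of their group by Dixon's test, where chance alone gives about 1 group in 20. For Sfrp1 the CF1 array had -0.25, the lowest of CF, while the other 4 CF arrays lay between -0.03 and 0.05, and the gap was 0.733 of the range (critical value 0.71). Without CF1 the rise of Sfrp1 in aCF over CF was 1.25 in place of 1.30 (adjusted p = 0.00786 in limma). For Sfrp2 the CF5 array had -0.99, the highest of CF, while the others lay between -1.38 and -1.30, and the gap was 0.795 of the range. Without CF5 the rise of Sfrp2 in aCF over CF was 2.51 in place of 2.44 (adjusted p = 1.44e-07 in limma).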

How the results depend on the processing

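The count of the 8 genes past the threshold was 3 for EpiSC against aCF, 3 for aCF against CF and 2 for EpiSC against CF. Omitting 1 array gave 1 to 2, 2 in every case, and 1 to 2 in these comparisons. With the replicate number as a block the counts were 1, 1 and 0, with Rspo1 (adjusted p = 0.031) past the threshold in EpiSC against aCF and Sfrp2 (0.000449) in aCF against CF. The labels do not say whether equal numbers share a heart. Deviations of same-numbered EpiSC and aCF arrays correlated between -0.00303 and 0.172, and 2 of 5 EpiSC arrays correlated best with the aCF array of their own number, so pairing was neither shown nor excluded. Leaving out both aCF4 and aCF5 gave 0 for EpiSC against aCF and 1 for aCF against CF. The trended and robust fit gave 1 for aCF against CF and 0 for EpiSC against CF, and 1 fit of all 3 groups gave 1 for aCF against CF. Benjamini-Hochberg adjustment gave 5 for aCF against CF and 6 for EpiSC against CF. With identifiers as deposited all 3 counts were 0. The cause of these losses was not tested.

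Apart from omissions of 1 array and pairings of identifiers, 159 of 160 values of the 8 genes kept their direction. The exception was Rspo3 in EpiSC against aCF after quantile normalization (-0.0087). Most of these values could not turn. The fit of 3 groups, trended and robust fit, Benjamini-Hochberg adjustment, paired rows and replicate block leave the difference itself unchanged. Only quantile normalization and leaving out aCF4 and aCF5 together could change a direction. Among omissions of 1 array 235 of 240 values kept their direction. The exceptions were in EpiSC against aCF for Dkk2 (-0.0485 to 0.2535) and Rspo3 (-0.2395 to 0.368). With identifiers as deposited, which reads other rows, the direction turned in EpiSC against aCF for Sfrp2 (0.09), Frzb (0.16), Dkk3 (0.23), Wif1 (-0.064), Rspo3 (-0.008) and Fzd4 (0.076). It turned in aCF against CF for Sfrp1 (-0.058), Frzb (-0.59), Dkk2 (-0.058), Dkk3 (-0.10), Wif1 (0.028), Rspo1 (0.008) and Ccn5 (-0.094), and in EpiSC against CF for Dkk2 (-0.048) and Nkd1 (-0.026). Without the extra 3 rows Wif1 turned to 0.10 in aCF against CF and 0.23 in EpiSC against CF. Centred values hide signal over background, so low-signal genes cannot be recognized.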

Other observations

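Single CF arrays were low or high for several of these genes at once. CF4 was the lowest CF array for Dkk3 (-1.25), Wif1 (-0.77) and Rspo3 (-1.40), and by smaller steps for Sfrp2 (-1.38) and Frzb (-0.24). CF1 was the highest for Dkk3 (-0.07) and Wif1 (1.44) and the lowest for Sfrp1 (-0.25), Dkk2 (-0.65) and Rspo1 (-0.46). CF4 also had the highest mean of the cell cycle genes among CF arrays (-1.42, against -2.03 to -1.93 in the others) and the lowest mean of pericyte and smooth muscle markers (-0.96, against -0.82 to -0.30). After removal of group means, Dkk3 and Wif1 correlated at 0.631 over the 15 arrays, the highest of the 28 pairs among the 8 genes, as a description with no test. Dkk3 varied mostly within CF (SD 0.43, against 0.11 in EpiSC and 0.06 in aCF), so the CF arrays weigh most in this value.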
